A study of Mus musculus with 12 samples.

Results

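A gene that is read by several probes on a microarray can give a different change at each of them, and 6 genes did so in hearts of MHC-CELFΔ mice by at least 0.5 on the log2 scale, which is 1.41-fold. They were Rcan1, 2310002L09Rik, Stub1, Fyco1, Masp1 and Tmem164. They were selected on their measured changes from wild type, and chosen by the size of the difference between those changes, among 345 genes that had at least 2 features with a mean log2 value of 7 or more over the 12 arrays, where a feature is 1 row of values, or several rows with identical values merged into 1. A gene was taken if its largest and smallest feature changes from wild type differed by 0.5 or more in the mild line or in the severe line. Tpm and Celf genes were left out beforehand, and of these Tpm3 would otherwise have been taken. The array named 19014 genes in all, and 7128 of them had at least 1 feature at the minimum, so that most genes of the heart could not be examined in this way.

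The hearts came from FVB/N females at 3 weeks of age. The mild line (MHC-CELFΔ-574, n = 3) and the severe line (MHC-CELFΔ-10, n = 3) are hemizygous for a transgene that makes a dominant negative CELF protein, held in the nucleus, under the heart muscle promoter of α-myosin heavy chain. Wild type littermates of the mild line (n = 3) and of the severe line (n = 3) carry no transgene, and the 6 of them together were the controls. Each line descends from its own transgene insertion, so that insertion site and transgene level cannot be told apart, and the RNA was from whole hearts, in which fewer cells of a type and less RNA per cell cannot be told apart. Heart muscle markers were high on every array, with a mean level of 12.3 to 12.72 over the 7 of 8 markers that were measured. Single markers differed from wild type. Ryr2, Pln, Tnni3 and Mybpc3 did so by -1.06, -1.03, 0.26 and 0.25 in the mild line and by -0.47, -0.64, -0.25 and -0.17 in the severe line. Myh6, Actc1 and Myl2 differed by -0.10 to 0.18.

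CELF proteins bind RNA and steer alternative splicing, and in heart muscle they help set which exons a transcript carries. Probes of an expression array are short and mostly lie towards one end of a transcript model. When a gene makes transcripts that differ in their first exons, inner exons or 3′ ends, its probes may read different sets of them. The probe sequences were not used here, and which exon or end each probe reads was not determined. Every value below is the deposited log2 intensity or a difference of such values. Levels of different probes were not ranked against each other. Ratios of a gene's features were used only to compare arrays or groups of arrays.

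At Rcan1 both features were higher in both lines than in wild type, and one of them by more. Rcan1, the regulator of calcineurin, is a feedback inhibitor of the calcium-activated phosphatase calcineurin, and is known for separate promoters of which the inner one responds to calcineurin through NFAT. The annotation has 2 start sites, on the minus strand of chromosome 16. The 250 bases before each start are shown because transcripts from these starts begin with different first exons, with the NFAT core GGAAA, or its complement TTTCC, in capitals (RefSeq, GRCm38.p6, 5′ to 3′ along the gene).
Rcan1, inner start, chr16:92400079-92400328: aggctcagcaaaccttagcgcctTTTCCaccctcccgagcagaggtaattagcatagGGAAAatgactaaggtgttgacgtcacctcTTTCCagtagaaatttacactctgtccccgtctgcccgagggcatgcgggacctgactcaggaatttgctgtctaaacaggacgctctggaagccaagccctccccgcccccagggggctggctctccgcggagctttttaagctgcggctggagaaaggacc
Rcan1, outer start, chr16:92466170-92466419: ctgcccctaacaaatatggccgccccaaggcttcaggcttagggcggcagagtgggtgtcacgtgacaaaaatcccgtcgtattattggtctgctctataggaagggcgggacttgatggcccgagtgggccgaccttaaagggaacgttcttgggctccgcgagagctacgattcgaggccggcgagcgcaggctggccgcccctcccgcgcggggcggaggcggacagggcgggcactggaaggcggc
The inner window held the core 3 times over both strands, and the outer window did not hold it. Of the 32851 mouse promoter windows of this length, 55.6% held the core at least 1 time and 6.39% at least 3 times. One of the windows of Tmem164 also held it 3 times. None of the 8 windows listed for 5 of the 6 genes held a CArG box, the motif bound by serum response factor, which 1.47% of all windows held. These are matches of letters and not measured sites.

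The first Rcan1 feature, ILMN_1259180, read 7.40, 7.12 and 7.87 in littermates of the mild line and 7.22, 7.71 and 7.24 in littermates of the severe line. It read 9.04, 9.48 and 9.36 in mild line hearts and 9.36, 9.34 and 9.97 in the severe line. No transgenic array overlapped a wild type array, and the means lay above wild type by 1.87 for the mild line (3.65-fold) and by 2.13 for the severe line (4.38-fold). The other feature, ILMN_2469555 with ILMN_2701991, read 9.11, 8.98 and 9.58 in littermates of the mild line and 9.26, 9.42 and 9.09 in those of the severe line. Its mild line values were 10.51, 10.65 and 10.41, and its severe line values were 10.67, 10.41 and 10.80. These again stood above every wild type array, by 1.28 (2.44-fold) and 1.39 (2.61-fold). The change of the first feature was thus larger by 0.58 in mild line hearts and by 0.75 in the severe line, with SDs of the array-by-array difference of 0.13 in wild type, 0.22 in mild line hearts and 0.24 in the severe line. In both lines all 3 arrays lay beyond the 6 wild type arrays in this difference, and the lines overlapped each other. Both features are annotated with the same RefSeq transcript, and Rcan1 was the only one of the 6 genes without a feature annotated to no RefSeq transcript.

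**Figure D1:**
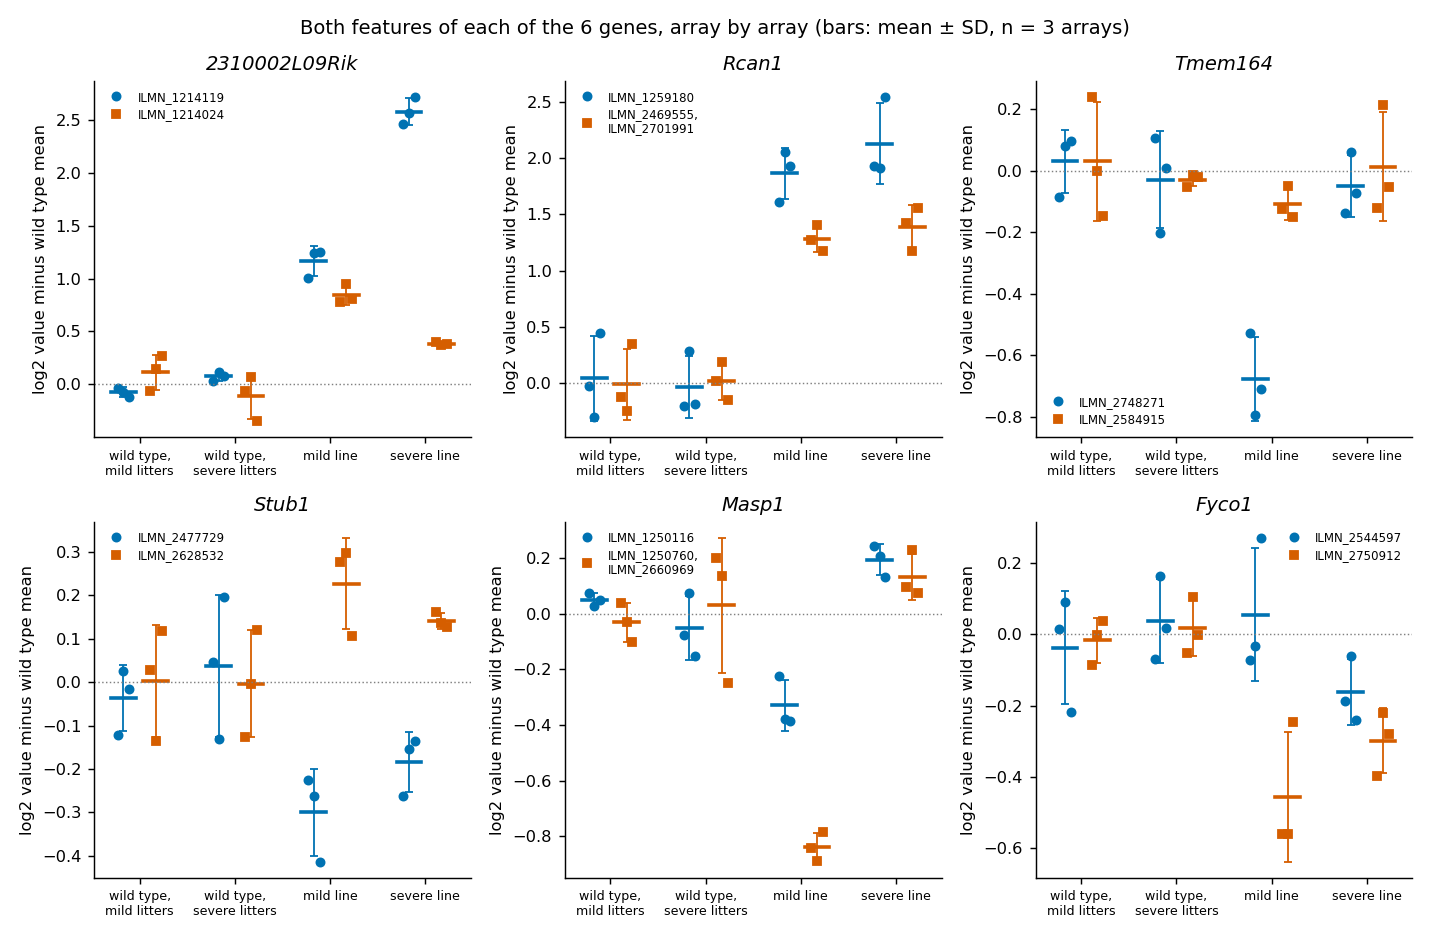
Log2 value of each array minus the mean of the 6 wild type arrays (vertical axis), for both features of each of the 6 genes, in the 4 groups of 3 arrays (horizontal axis); points are arrays, thick bars are means and thin bars are SDs. The features of Rcan1 stay apart in both lines, those of 2310002L09Rik mainly in the severe line, and those of Stub1 lie on opposite sides of the wild type mean in both lines.

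2310002L09Rik, a gene known by its RIKEN cDNA name, showed the largest difference of the 345 genes, and the order of the lines depended on the feature. ILMN_1214119, annotated with a RefSeq transcript, was 6.61, 6.57 and 6.52 in littermates of the mild line and 6.68, 6.76 and 6.73 in littermates of the severe line. It was 7.65, 7.89 and 7.90 in mild line hearts and 9.11, 9.21 and 9.36 in the severe line. The 3 genotypes were fully separate, with means above wild type of 1.17 (2.25-fold) in mild line hearts and 2.58 (5.985-fold) in the severe line. ILMN_1214024, which the annotation ties to a cDNA clone outside RefSeq, was 10.75, 10.95 and 11.08 in littermates of the mild line and 10.74, 10.88 and 10.47 in littermates of the severe line. It was 11.59, 11.76 and 11.61 in mild line hearts and 11.22, 11.18 and 11.19 in the severe line. Here the mild line was the higher of the lines, at 0.84 above wild type against 0.385 for the severe line, and the 3 genotypes were again fully separate. The difference between the features was 2.20 in the severe line (4.58-fold) and 0.33 in the mild line, where it overlapped wild type. The wild type mean of ILMN_1214119, 6.65, was near the median of all features on an array, 6.63, and below the minimum of 7, so that this feature was counted through its transgenic arrays alone and its fold depends on how background is removed. With normexp background correction and an offset of 16 the difference was 3.29 in the severe line and 1.09 in the mild line.

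Stub1 and Fyco1 belong to protein quality control and autophagy. Stub1 encodes CHIP, a ubiquitin ligase that works with the chaperones Hsp70 and Hsp90, and Fyco1 encodes an adaptor that links autophagosomes to kinesin on microtubules. In each of them one feature was lower in both lines than in every wild type array.

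Stub1 was the only one of the 6 genes with features on opposite sides of the wild type mean by non-overlapping arrays in the severe line. ILMN_2477729, annotated with no accession, read 7.72, 7.87 and 7.83 in littermates of the mild line, and 7.89, 7.71 and 8.04 in those of the severe line. It read 7.62, 7.59 and 7.43 in mild line hearts and 7.58, 7.69 and 7.71 in the severe line, lower by 0.30 and 0.18 on average, with every transgenic array below every wild type array. ILMN_2628532, on the RefSeq transcript, read 8.75, 8.58 and 8.84 in littermates of the mild line and 8.59, 8.72 and 8.84 in those of the severe line. Its values were 8.996, 9.02 and 8.82 in the mild line, 0.23 above wild type with overlap, and 8.88, 8.85 and 8.85 in the severe line, 0.14 above wild type with no overlap. In the severe line both separations were narrow. From the wild type mean, the highest severe line array of ILMN_2477729 was at -0.1357 and the lowest wild type array at -0.1316. At ILMN_2628532 the lowest severe line array was at 0.1268 and the highest wild type array at 0.119. The difference between the features was -0.53 in mild line hearts and -0.33 in the severe line, and the arrays of each line lay outside the wild type range of -0.15 to 0.17.

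Fyco1 differed from wild type in one feature, and not by non-overlapping arrays in the other. ILMN_2750912, on the RefSeq transcript, read 10.32, 10.40 and 10.44 in littermates of the mild line and 10.35, 10.51 and 10.40 in those of the severe line. The mild line read 9.84, 9.84 and 10.16 and the severe line 10.01, 10.18 and 10.12, lower by 0.45 and 0.30, with no overlap with wild type. ILMN_2544597, which is tied to a cDNA clone, read 7.76, 7.83 and 7.52 in littermates of the mild line, 7.67, 7.91 and 7.76 in those of the severe line, 7.67, 7.71 and 8.01 in mild line hearts and 7.55, 7.68 and 7.501 in the severe line. Its means were 0.05 above and 0.16 below wild type, and both lines overlapped it. The difference between the features was 0.51 in the mild line, where the 3 arrays had values of 0.49 to 0.53, above all wild type arrays, and 0.14 in the severe line, where they overlapped wild type. The third mild line array was the highest in both features, so that its difference between them was like those of the other mild line arrays.

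Masp1 was lower than wild type in the mild line, and not in the severe line. Masp1 encodes a serine protease of the lectin pathway of complement, and the gene is known to give several proteins by alternative splicing and polyadenylation, among them MASP-1, MASP-3 and a short inhibitor made in heart. ILMN_1250116, tied to a cDNA clone, read 7.78, 7.73 and 7.75 in littermates of the mild line and 7.62, 7.78 and 7.55 in those of the severe line. It read 7.48, 7.32 and 7.32 in the mild line, below every wild type array, and 7.94, 7.91 and 7.83 in the severe line, above every wild type array, for mean differences of -0.33 and 0.20. ILMN_1250760 with ILMN_2660969, annotated to a RefSeq transcript and a cDNA clone, read 8.03, 7.96 and 7.88 in littermates of the mild line and 8.19, 8.12 and 7.74 in those of the severe line. It read 7.14, 7.10 and 7.199 in mild line hearts and 8.08, 8.21 and 8.06 in the severe line. The mild line mean was lower by 0.84, below every wild type array, and the severe line mean was higher by 0.13, with overlap. Both features thus had the mild line lowest, and the difference between them was 0.51 in mild line hearts and 0.06 in the severe line.

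Tmem164, which encodes a protein with several membrane-spanning segments, was lower in the mild line at 1 of its 3 features. ILMN_2748271 read 7.44, 7.61 and 7.62 in littermates of the mild line and 7.63, 7.32 and 7.53 in those of the severe line. The mild line read 6.998, 6.73 and 6.82, below all other arrays and 0.68 below the wild type mean, and the severe line read 7.39, 7.58 and 7.45, within the wild type range. ILMN_2584915, tied to a cDNA clone, read 8.37, 8.13 and 7.99 in littermates of the mild line and 8.08, 8.12 and 8.11 in those of the severe line. It read 8.004, 8.08 and 7.98 in mild line hearts and 8.01, 8.34 and 8.08 in the severe line, and both overlapped wild type. The difference between these features was -0.57 in mild line hearts and -0.06 in the severe line. A further feature, ILMN_2684002, is annotated to the same RefSeq transcript as ILMN_2748271. Its mean of 6.32 was under the minimum and its means differed from wild type by 0.02 and -0.02, so that the lower value in the mild line was not seen at this dim feature.

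**Figure D2:**
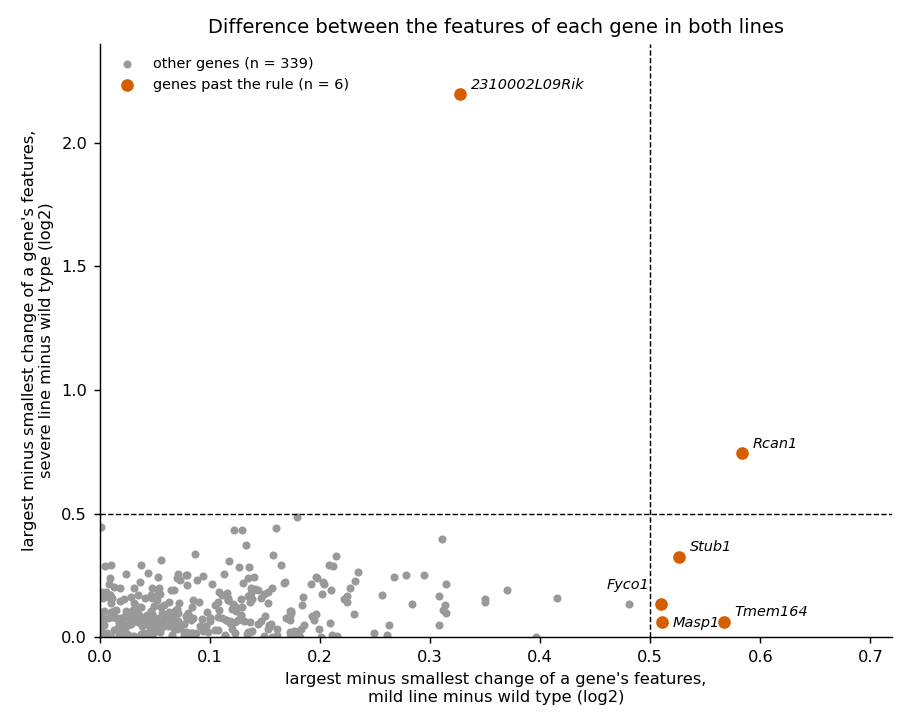
Largest minus smallest change from wild type among the features of each gene, in the mild line (horizontal axis, log2) and the severe line (vertical axis, log2), for 345 genes; dashed lines mark 0.5. Only Rcan1 lies past both lines, 4 genes lie past the line for the mild line alone, and 2310002L09Rik stands far above all others in the severe line.

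The choice by size took 6 of 345 genes (1.74%), where 5 passed in mild line hearts (1.45%) and 2 in the severe line (0.58%), so that 4 genes entered by the mild line alone, 1 by the severe line alone and 1 by both. Over all 345 genes the difference had a median of 0.08 in mild line hearts and 0.09 in the severe line, with upper quartiles of 0.15 and 0.17. The genes just inside the threshold were Stub1 at 0.53 and Masp1 and Fyco1 at 0.51. Just outside lay Prkar1a, a regulatory subunit of protein kinase A, at 0.49 in the severe line, Sgms1, a sphingomyelin synthase, at 0.48 in the mild line, and Hnrnpc, an RNA-binding protein of the splicing machinery, at 0.45 in the severe line. At Prkar1a, ILMN_2473294 was 0.61 above wild type in the severe line with no overlap and ILMN_1235481 was 0.12 above with overlap. At Sgms1, ILMN_2480682 was 0.52 below wild type in the mild line with no overlap and ILMN_1233501 was 0.04 below with overlap. At Hnrnpc, whose features both lie on the same RefSeq transcript, ILMN_2511051 was 0.29 below wild type in the severe line with no overlap and ILMN_1235470 was 0.16 above with overlap.

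Membership at the margin moved with single arrays. Without replicate 1 of the littermates of the severe line both Stub1 and Masp1 fell under the threshold, without replicate 2 of the same group or replicate 1 of the mild line Masp1 did, without replicate 2 of the littermates of the mild line Stub1 did, without replicate 3 of that group Fyco1 did, and without replicate 2 of the mild line Tmem164 did. With each line set against its own littermates the difference was -0.49 at Stub1 and 0.43 at Masp1 in the mild line, both under the threshold in size, and 0.52 at 2310002L09Rik in the mild line, past it. Rcan1 and 2310002L09Rik were past the threshold in the severe line whichever array was left out, but in the mild line Rcan1 was at 0.49 without replicate 3 of that line.

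Beside the size, the array-by-array ratio of the features was read against wild type. Of the 6 pairs of features, 5 had all mild line arrays outside the wild type range, 3 had all severe line arrays outside it, and 2 (Rcan1 and Stub1) had both. Over all 400 pairs of features of the 345 genes the shares were 4% in mild line hearts and 6% in the severe line. These are the contrasts on which the genes were chosen, and the counts are descriptions.

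The groups of littermates gave a comparison on which the choice did not rest, since it is independent of the mean over wild type arrays. It asks whether the ratio of a gene's features also differed between wild type hearts when these were grouped by line. The labels name the line of each wild type mouse and not its litter, so that single litters could not be compared. With limma and Benjamini-Hochberg adjustment over 400 pairs, 0 pairs passed an adjusted p of 0.05 (0%). An unadjusted p under 0.05 was found for 46 (11.5%), a larger share than that threshold gives when no pair differs. For 2310002L09Rik, littermates of the mild line were lower than littermates of the severe line by 0.38 in the ratio (difference -0.38, SE 0.12, 95% interval -0.64 to -0.12, limma adjusted p = 0.2185, unadjusted 0.006344). On these wild type arrays ILMN_1214119 was near the array median and under the minimum of 7, so that this ratio sets the other feature against a value close to background, and the test says little about this gene. The value lies outside the central 95% of the 400 pairs, -0.29 to 0.30, and is small beside the severe line difference of 2.20. It is of the same order as the mild line difference of 0.33, and the wild type arrays differed in it by an SD of 0.28. For Rcan1 the difference between the sets of littermates was 0.11 (limma adjusted p = 0.7992), for Masp1 0.16 (limma adjusted p = 0.4987), for Stub1 -0.08 (limma adjusted p = 0.8265), for Fyco1 -0.04 (limma adjusted p = 0.9408) and for Tmem164 0.00 (limma adjusted p = 0.9992). Residual SDs of the 6 pairs were 0.11 to 0.19, against a median of 0.13 over all pairs. Among single features, 35 of 30854 differed between the sets of littermates (0.113%), and none of the 12 features of the 6 genes was among them (lowest limma adjusted p 0.4364). At that share, none among 12 says little about these genes. An unadjusted p under 0.05 (limma) was found for 3092 of the 30854 features.

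**Figure D3:**
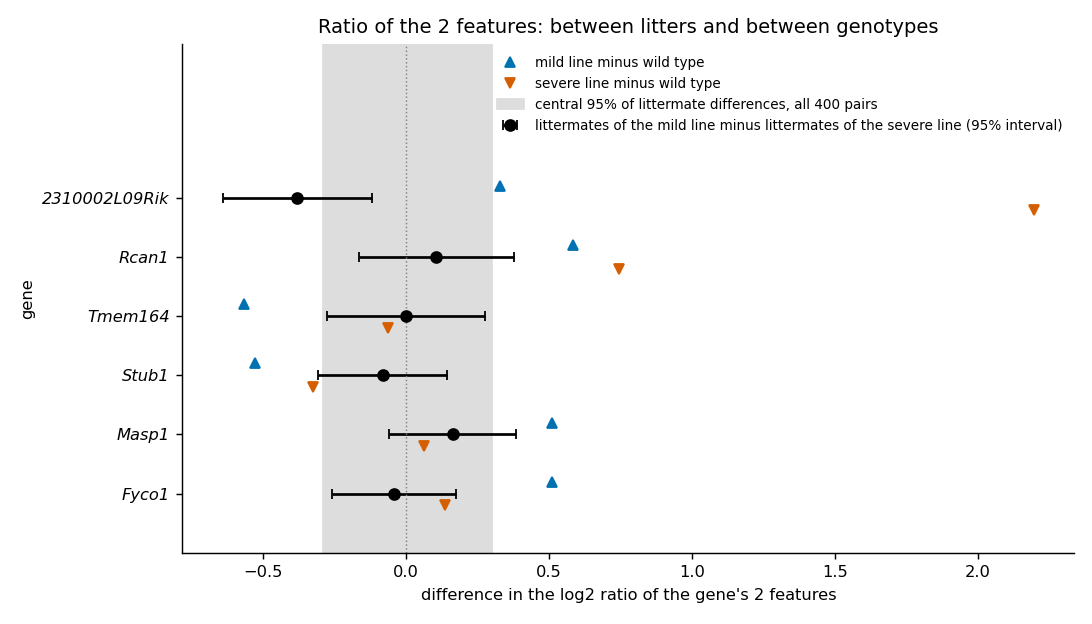
Difference in the log2 ratio of each gene's features (horizontal axis) for the 6 genes (vertical axis): black points compare wild type littermates of the mild line with those of the severe line with 95% intervals, triangles give the mild and severe lines minus wild type, and the grey band holds the central 95% of this littermate difference over all 400 pairs. The black points lie between -0.38 and 0.16, and the interval of 2310002L09Rik alone leaves out 0. The intervals are not adjusted for the number of pairs (limma adjusted p = 0.2185 for this gene). One feature of this gene was close to background on the wild type arrays.

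The annotation gave some features in common that the choice had not used. All 6 genes had at least 2 curated RefSeq transcripts, as had 212 of the 345 genes (61.6%), and 3 of 6 had at least 2 promoter windows, against 86 of 345 (24.9%). In 5 of 6 one feature was annotated to a RefSeq transcript and another to none, against 180 of 345 (52.2%). The RefSeq feature was the one that departed more from wild type, in the line that took the gene in, at 2310002L09Rik, Masp1 and Fyco1, and the one that departed less at Stub1. At Tmem164 it departed more for ILMN_2748271 (-0.68) and less for ILMN_2684002 (0.02), which was under the minimum, against -0.11 for the cDNA feature ILMN_2584915. With 6 genes these shares are counts and nothing more.

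Gene lists put the 6 genes in context, by how few genes of a pathway could be read at all. Of 50 genes known for splice switches in heart and muscle 44 were on the array, but only 1 had 2 usable features, and it was not among the 6. Of 61 sarcomere and Z-disc genes 2 could be read and 0 were taken, of 52 splicing regulators other than CELF 6 could be read and 0 taken, of 65 genes of energy metabolism 2 and 0, and of 52 genes of the extracellular matrix 1 and 0. Of 47 genes of calcium handling 5 could be read and Rcan1 was taken. Rcan1 was likewise taken from a list of 12 symbols for the serum response factor network of the study, of which 2 could be read. That list held Ctgf also under its other symbol Ccn2, and it lacked Tpm2, a Tpm gene that the study named. The study chose that network on these samples.

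Markers of other cells differed between the groups. The 5 atrial muscle markers had a mean level of 12.86 to 13.14 in wild type. It was 11.44 to 11.84 in mild line hearts and 12.73 to 12.99 in the severe line. Their mean was thus lower in the mild line, where both features of Masp1 and 1 feature of Tmem164 were also lower. The other features of Tmem164 overlapped wild type in the mild line. In that line Mybphl, Sln, Myl7 and Myl4 differed from wild type by -2.94, -1.745, -1.735 and -0.72, and Nppa by 0.06. The 7 fibroblast markers had a mean level of 9.07 to 9.203 in wild type, 9.205 to 9.42 in mild line hearts and 9.34 to 9.36 in the severe line. These were above wild type in both lines, as were both features of Rcan1 and 2310002L09Rik, but only narrowly so in the mild line. Each of the 7 had a higher mean in both lines, by as little as 0.02 (Col3a1 in the severe line). The mean of the 5 smooth muscle markers was 8.68 to 8.82 in the severe line against 8.42 to 8.66 in wild type, through Acta2 (0.60) and Tagln (0.53), while Myh11, Cnn1 and Smtn differed by 0.03, -0.02 and -0.07 and the median change was 0.03. The mean of the 7 measured skeletal muscle markers was 8.61 to 8.73 in the mild line against 8.45 to 8.60 in wild type, through Acta1 (1.43), which heart muscle also makes, while Tnni2 and Ckm differed by -0.50 and -0.15 and the median change was 0.00. Of the 3 measured pancreas markers Ins2 alone was high, at 11.38 on 1 wild type array, and Prss2 and Cela1 stayed at or under 6.66 on all 12. Median raw intensities were 119.9 to 122.9 in the severe line and 106.4 to 116.6 on all other arrays, and correlations within groups were 0.991 to 0.995. The part of these differences in the results above was not tested.

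**Figure D4:**
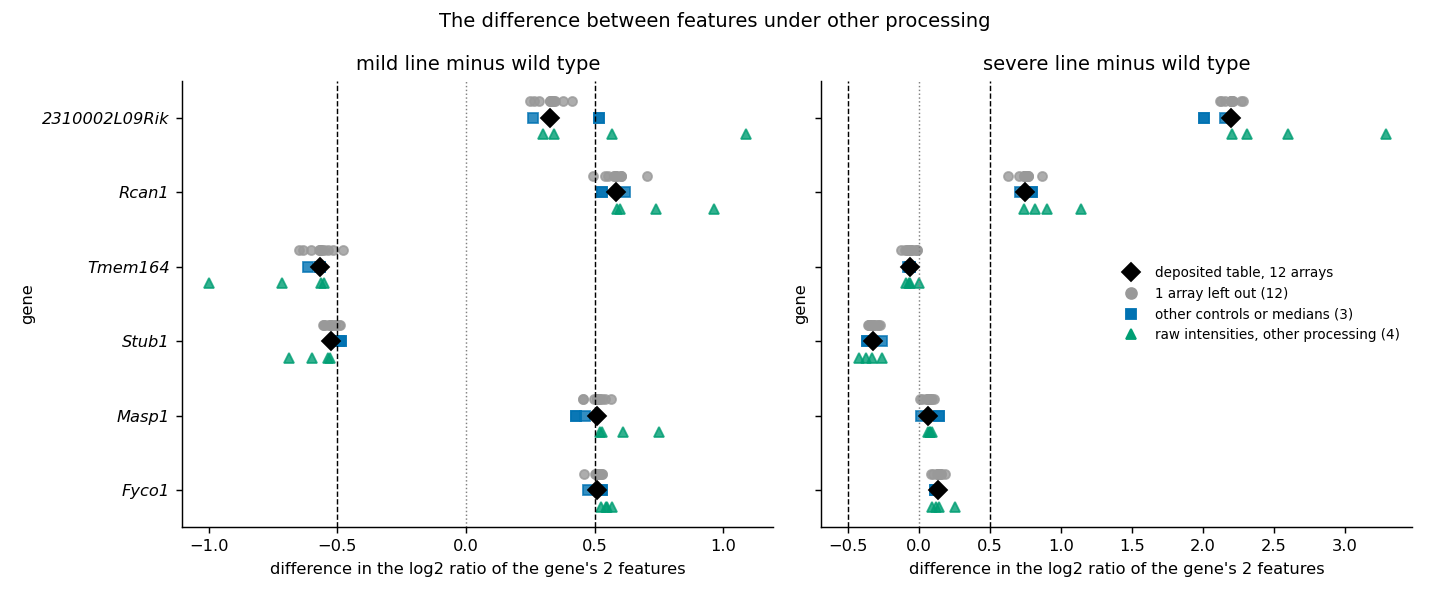
Difference in the log2 ratio of each gene's features (horizontal axis) in the mild line (left) and the severe line (right) minus wild type, for the 6 genes (vertical axis), from the deposited table (diamonds), with 1 array left out (circles), with other controls or medians (squares) and from raw intensities (triangles). No sign changed among the 228 alternative values, and in the mild line the values of all 6 genes fall on both sides of the dashed threshold of 0.5 in size. Some of the 228 could not move, since leaving out an array of one line does not touch the other line, and some are repeats.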

How the data were processed

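Illumina MouseWG-6 v2.0 arrays were read from whole hearts of 12 mice, 3 in each of 4 groups given by the labels. The deposited log2 values were made by the authors from GenomeStudio bead summaries by background correction and quantile normalization, with limma for their tests. The deposited raw intensity files are linear and hold no detection p-values, and 6 lines without an ID were left out. Against quantile normalized raw log2 values the deposited ones were lower by a nearly constant amount (median -0.197, range -0.375 to -0.193). The 45281 probe IDs gave 30854 features after rows with identical values were merged, 8966 of them with over 1 ID. Names came from GEO's platform table, with symbols updated through RefSeq (GRCm38.p6). 34885 IDs had 1 symbol, 18 several and 10378 none, and features of several genes were not used. All 6 genes are described with every array, and the 3 genes closest outside the threshold by their features. The genes and lists were chosen with earlier results of these data known. Because the choice used the changes from wild type, those were not tested. The difference of 2 features on each array was fitted with limma 3.58.1 (R 4.3.3) as 4 group means, and the groups of littermates were compared, with Benjamini-Hochberg adjustment over 400 pairs. The same was done for all features. The rule and the littermate test were run on simulated data with planted differences, as a check of the code alone. The data for the rule held no noise, so that what it found was fixed in advance. Alternatives were other minimums (6.5, 8, none), a difference of 1, own littermates, group medians, each array left out, rows not merged, raw intensities with normexp (offset 50) or none and with median scaling, and, added after seeing the data, an offset of 16 and features of several genes counted for each. The number of arrays limits precision. Scan batches are not given in the sources used here.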

Additional observations from a re-analysis of the deposited data

Results flagged for a closer look

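Among 18 groups of 6 wild type arrays (12 features and 6 differences between features), 2 held an array far from the others, where chance alone gives about 1 in 20. Replicate 1 of the littermates of the mild line read 8.37 at Tmem164 ILMN_2584915, above the other wild type arrays. At Fyco1, replicate 3 of the littermates of the mild line had a difference between features of -0.25 from the wild type mean, below the other wild type arrays, and Fyco1 was no longer past the threshold without that array.

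The lines lay on opposite sides of wild type at both features of Masp1, with the mild line at -0.33 and the severe line at 0.20 for ILMN_1250116, and at -0.84 and 0.13 for ILMN_1250760 with ILMN_2660969. The difference between the lines was not tested, because the genes were chosen on these contrasts.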

How the results depend on the processing

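The count of 6 of 345 genes (5 in the mild line, 2 in the severe line) moved most with the minimum level. The minimum also sets how many genes can be examined. With a minimum of 6.5 there were 41 of 1350 (32 and 17), and with none 65 of 2680 (49 and 27), each time with all 6 among them. With a minimum of 8 there was 1 of 97 (1 and 1), Rcan1. With a difference of 1 there was 1 (0 and 1), 2310002L09Rik. Raw intensities with median scaling gave 12 of 468 (8 and 6). The severe line had 5 of 345 with group medians, 4 of 491 with quantile normalization alone and 4 of 192 with normexp at an offset of 16. With that offset a feature of Tmem164 fell under the minimum. Leaving out 1 array gave 5 to 8 genes in all, 4 to 6 in the mild line and 2 to 3 in the severe line. Replicate numbers did not pair the arrays (correlations of deviations -0.274 to 0.0734). With own littermates there were 6 genes, with Prkar1a and Sgms1 in place of Stub1 and Masp1. Adding the replicate block could not change this, since with 3 arrays against 3 it leaves a difference of group means as it is. With the block the littermate test stayed at 0 pairs. That test called 1 pair with no minimum and 0 to 2 with 1 array left out, where replicate 2 (1 pair) or 3 (2 pairs) of the littermates of the severe line was missing. The lowest adjusted p among those of the 6 genes that were tested (limma) was 0.1652 to 0.8371 over the alternatives. The highest of these came with a minimum of 8, where Rcan1 alone of the 6 was tested. Of 228 values of the 6 differences under 19 alternatives, 201 moved by less than the replicate SD or not at all, 27 by more and 0 changed sign. Part of the 201 was fixed in advance, since leaving out an array of one line cannot move the other line's value. The values with the replicate block repeat those with own littermates. These counts therefore overstate how stable the differences were. With normexp at an offset of 16 the difference grew over 1.5 times at 2310002L09Rik (1.09), Rcan1 (0.97) and Tmem164 (-0.9993) in the mild line and at Rcan1 (1.14) in the severe line. The causes were not tested. With 3 arrays a group, 1 array could move a difference near 0.5 across the threshold.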
